A study of Mus musculus with 3 samples.

Results

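The regions described here were 263 peaks of histone H3 trimethylated at lysine 4 (H3K4me3) that were shorter than 3500 bp and were each overlapped, by at least 1 bp, by 3 or more peaks of the transcription factor ETV5. They made up 1.74% of the 15122 H3K4me3 peaks on chromosomes 1 to 19 and X. The regions were thus chosen by the number of their ETV5 peaks and the width of their H3K4me3 peak, and these measures and the heights of the same peaks are given as descriptions with no test. Both antibodies were used on chromatin of C57BL/6 mice aged 10 to 12 weeks, from the alveolar type II (AT2) cells that make the surfactant of the lung. The series holds 1 ETV5 library, 1 H3K4me3 library and 1 input library without antibody, all from AT2 cells of this strain and age, with no treatment and no mutant allele named. The sources used here do not give the number of mice behind each library. With 1 library per antibody no value has a replicate check, and the 95% intervals below, exact Clopper-Pearson for shares and binomial order statistics for medians, cover counting error only. The ETV5 list rests on 5715049 filtered tags and the H3K4me3 list on 34907608, so ETV5 peaks were called at the lower depth. Of 25 AT2 marker genes, 22 had a start in an H3K4me3 peak, against 6 of 27 markers of other lung cell types and 11053 of all 21627 protein-coding genes.

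H3K4me3 is laid down at promoters, and its peaks usually form around the start of a transcribed gene. ETV5 belongs to the ETS family of transcription factors, is induced by FGF through ERK, and is needed in mice for AT2 cells to keep their identity. ETS proteins recognise a GGAA core, and many promoters without a TATA box carry ETS motifs close to the start site. Peak callers report a separate peak wherever the enrichment drops below the threshold between neighbouring maxima, so several ETV5 peaks in a stretch of H3K4me3 are several local maxima of ETV5 enrichment.

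Promoter windows of 5 genes from the regions are shown because they carry the strongest ETV5 peaks, the most ETV5 peaks, or an ETS motif near an ETV5 summit. Each window runs from 250 bp before to 50 bp after the start and is read 5′ to 3′ along the gene from RefSeq, build GRCm38.p6. Capitals mark CGGAAG or its reverse complement CTTCCG, the core of the longer ETS motif CCGGAAGT, which overlaps it. All 5 genes lie on the minus strand.
0610010K14Rik promoter, chr11:70237865-70238164: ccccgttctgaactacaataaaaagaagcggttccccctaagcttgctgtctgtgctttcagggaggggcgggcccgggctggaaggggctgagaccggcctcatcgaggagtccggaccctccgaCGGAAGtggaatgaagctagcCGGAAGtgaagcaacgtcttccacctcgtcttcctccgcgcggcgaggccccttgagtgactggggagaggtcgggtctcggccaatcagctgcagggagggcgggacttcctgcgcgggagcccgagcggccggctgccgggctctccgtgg
Kctd10 promoter, chr5:114380456-114380755: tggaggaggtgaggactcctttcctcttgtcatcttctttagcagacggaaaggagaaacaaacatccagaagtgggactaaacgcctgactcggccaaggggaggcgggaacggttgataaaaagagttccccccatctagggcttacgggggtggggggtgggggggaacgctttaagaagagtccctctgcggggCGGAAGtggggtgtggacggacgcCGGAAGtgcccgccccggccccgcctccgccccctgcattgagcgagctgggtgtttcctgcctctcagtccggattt
Kmt2a promoter, chr9:44881240-44881539: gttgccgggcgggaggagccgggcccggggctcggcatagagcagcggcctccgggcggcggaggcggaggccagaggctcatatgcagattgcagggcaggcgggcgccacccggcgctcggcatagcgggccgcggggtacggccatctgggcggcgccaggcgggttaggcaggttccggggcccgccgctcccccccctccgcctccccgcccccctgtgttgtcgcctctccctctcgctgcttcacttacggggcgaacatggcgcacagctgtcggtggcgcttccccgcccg
Spen promoter, chr4:141538548-141538847: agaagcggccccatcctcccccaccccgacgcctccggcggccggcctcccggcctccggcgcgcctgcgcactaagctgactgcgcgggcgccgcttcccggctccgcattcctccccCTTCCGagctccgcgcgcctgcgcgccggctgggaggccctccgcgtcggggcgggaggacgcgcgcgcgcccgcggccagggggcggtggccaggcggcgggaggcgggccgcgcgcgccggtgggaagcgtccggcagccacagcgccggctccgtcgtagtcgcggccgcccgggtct
Pdgfa promoter, chr5:138994895-138995194: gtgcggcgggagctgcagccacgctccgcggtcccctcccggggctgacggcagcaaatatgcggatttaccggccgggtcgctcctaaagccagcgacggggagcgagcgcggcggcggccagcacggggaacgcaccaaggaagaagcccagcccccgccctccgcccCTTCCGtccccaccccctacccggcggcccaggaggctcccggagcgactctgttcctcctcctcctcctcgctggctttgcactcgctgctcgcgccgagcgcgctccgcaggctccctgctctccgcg
The 0610010K14Rik window held 2 CGGAAG matches, and the CCGGAAGT among them began 104 bp upstream of the start, 6 bp from an ETV5 summit of 66.1-fold enrichment. The Kctd10 window also held 2, and its CCGGAAGT began 29 bp upstream of the start, 46 bp from a summit of 34.2-fold enrichment. Spen and Pdgfa had 1 CGGAAG each. The Kmt2a window contained the summit of the strongest ETV5 peak of all the regions and had 0 matches to CGGAAG. It did hold the shorter GGAAG, as its reverse complement CTTCC. The absence of a match says only that these letters are not in this window.

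ETV5 enrichment in the regions was split over 823 peaks, which were 2.64% of the 31149 ETV5 peaks on the same chromosomes. The regions held 3 ETV5 peaks in 234 cases, 4 in 25, 5 in 3 and 6 in 1. Their H3K4me3 peaks had a median width of 2387 bp, with the shortest at 752 bp and the longest at 3491 bp. The share of H3K4me3 peaks with 3 or more ETV5 peaks was 0.0886% (5 of 5642) under 1000 bp and 5.36% (69 of 1287) from 2000 bp to under 2500 bp. It was 17.8% (45 of 253, 95% interval 13.3 to 23.1%) from 3000 bp to under 3500 bp, against 35.6% (127 of 357, 95% interval 30.6 to 40.8%) in peaks of 3500 bp or longer. Because the share differed with width, the peaks set beside the regions, 12132 H3K4me3 peaks under 3500 bp with 1 or 2 ETV5 peaks, were weighted to the regions' widths in bins of 250 bp. Just inside the length limit lay the peaks at Prss8, the gene of the protease prostasin (3491 bp, 3 ETV5 peaks), Adrb1, a beta adrenergic receptor gene (3487 bp, 3 ETV5 peaks), and Cbr2, a carbonyl reductase gene (3486 bp, 4 ETV5 peaks). Just outside it lay those at Ptms (3508 bp, 5 ETV5 peaks), near Socs3 (3546 bp, 3 ETV5 peaks) and at Phf21a (3555 bp, 3 ETV5 peaks).

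**Figure D1:**
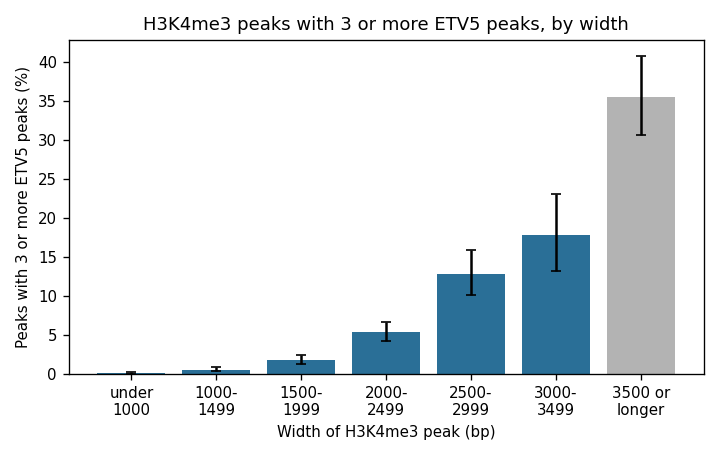
Share of H3K4me3 peaks on chromosomes 1 to 19 and X with 3 or more ETV5 peaks (y axis, percent) in bins of H3K4me3 width (x axis, bp), with exact 95% intervals as bars. The share is higher in each wider bin, up to 17.8% from 3000 bp to under 3500 bp (blue, the regions described here), and is 35.6% in the grey bin of 3500 bp or longer, which lies outside the rule.

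**Figure D2:**
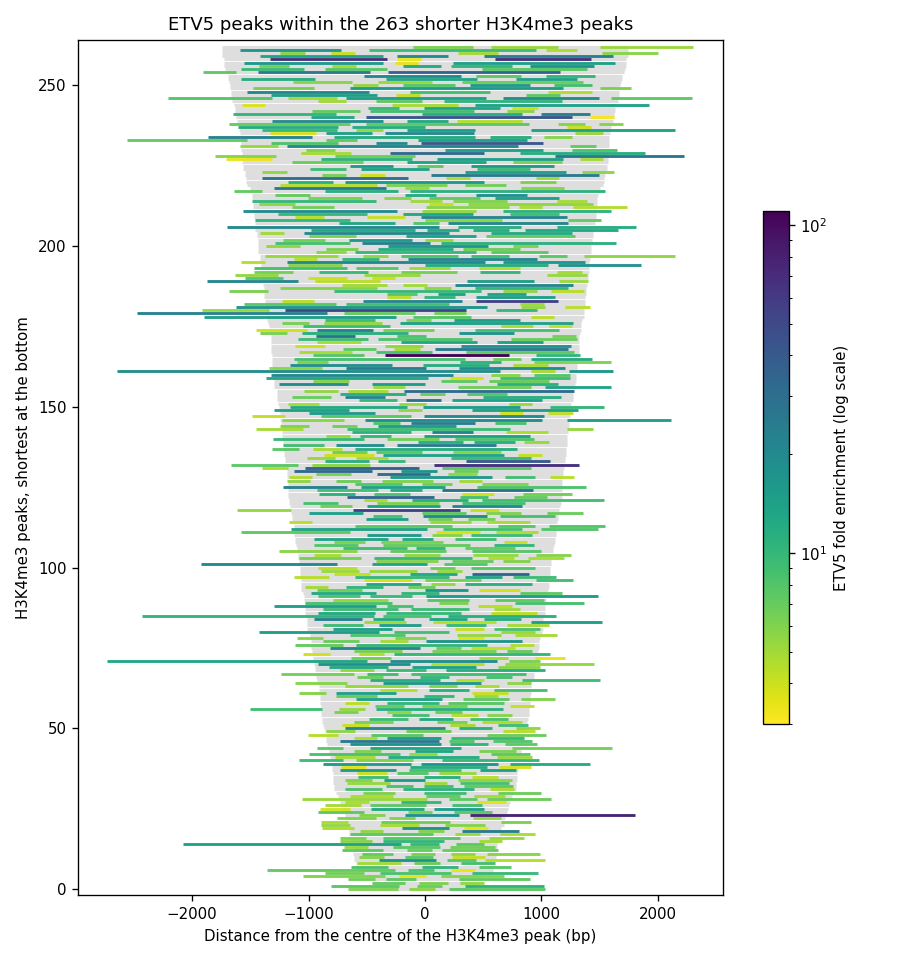
Map of the 263 regions, 1 per row with the shortest at the bottom. The H3K4me3 peak is in grey, its ETV5 peaks are coloured by fold enrichment on a log scale, and the x axis is the distance from the centre of the H3K4me3 peak in bp. ETV5 peaks cover from 25.5% to 89.4% of the H3K4me3 peak, and some reach beyond its edges.

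The map of the regions shows several ETV5 maxima in or at the edge of each H3K4me3 peak, in some regions grouped in a part of it. Neighbouring ETV5 summits were a median of 653.5 bp apart (95% interval 622 to 679 bp, 560 distances, range 242 to 2266 bp), against a width-weighted 835 bp, or 698 bp without weighting, in H3K4me3 peaks with exactly 2 ETV5 peaks. More peaks within the same width lie closer together by construction, so this difference is not independent of the rule. The edges of neighbouring ETV5 peaks were a median of 181 bp apart, and 312 of the 560 gaps (55.7%) were shorter than 203 bp, the fragment length that the caller used for the ETV5 library. When ETV5 peaks under 200 bp apart were merged before counting, 65 of the 263 regions still had 3. ETV5 peaks covered a median of 60.3% of the H3K4me3 peak (95% interval 57.8 to 62.7%), against a width-weighted 56.0% in the comparison peaks. Without weighting the comparison peaks had 59.1%, and H3K4me3 peaks with exactly 2 ETV5 peaks had a width-weighted 57.9%, both inside that interval. Coverage by more ETV5 peaks is not independent of the rule either. Of the 823 ETV5 summits, 74 (8.99%) lay outside the edge of the H3K4me3 peak, and they were found in 69 regions. With only ETV5 summits inside the H3K4me3 peak counted, 206 of the 263 regions still had 3 or more. The highest ETV5 summit of a region lay a median of 329 bp from the H3K4me3 summit, and the other ETV5 summits lay a median of 671 bp from it. Where a region had 3 ETV5 peaks, the highest was the middle one in 91 of 234 (38.9%, 95% interval 32.6 to 45.5%).

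Heights were unequal within most regions. The highest ETV5 peak had a median fold enrichment of 13.6 (95% interval 11.9 to 14.3), the second 7.64 and the third 5.39. Comparison peaks had a width-weighted median of 17.4 for their highest ETV5 peak, and 12.8 without weighting, so the side on which the regions fell depended on the weighting. With ETV5 peaks of −log10 q of 10 or more alone it was 18.7, against 18.5. Among H3K4me3 peaks with exactly 2 ETV5 peaks the width-weighted median of the highest was 15.9. Over all 823 ETV5 peaks of the regions the median fold was 7.48 and the median width 386 bp, against 11.4 and 697 bp over the ETV5 peaks of the comparison peaks without weighting. The ratio of the highest to the lowest ETV5 fold in a region had a median of 2.33 (95% interval 2.09 to 2.55), against a width-weighted 2.03 in H3K4me3 peaks with exactly 2 ETV5 peaks. A ratio of extremes tends to be larger over more peaks, so this difference is not independent of the rule either. After merging of ETV5 peaks under 200 bp apart it was 1.96, against 2.13. A −log10 q of at least 10 was reached by 415 of the 823 ETV5 peaks (50.4%), and 35 regions had 0 such peaks, 84 had 1, 104 had 2 and 40 had 3 or more. The median pileup was 14 fragments per ETV5 peak, so counting error alone is large for most of these folds.

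**Figure D3:**
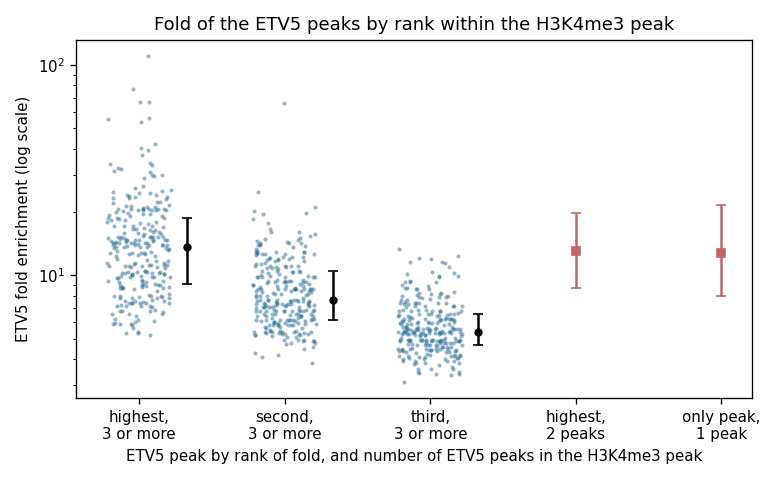
Fold enrichment of ETV5 peaks (y axis, log scale) by rank within the H3K4me3 peak. Points are the 3 highest ETV5 peaks of each of the 263 regions, by rank. Circles or squares with bars are medians and quartiles, at right those of H3K4me3 peaks under 3500 bp with 2 or 1 ETV5 peaks without width weighting. Medians in the regions were 13.6, 7.64 and 5.39.

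The strongest ETV5 peak lay at Kmt2a, which encodes a methyltransferase of H3 lysine 4 itself. The region (chr9:44880227-44882862, 2636 bp, H3K4me3 fold 53.8) spans the start of the gene. In genomic order its 3 ETV5 peaks had folds of 7.85, 110 and 10.3, from pileups of 15, 177 and 18 fragments. The tall peak had its summit 158 bp upstream of the start, in the promoter printed above, while the flanking maxima lay 429 bp downstream and 1404 bp upstream. Ccdc85c, which encodes a protein of apical cell junctions, had the next highest peak in a region of only 1379 bp (chr12:108274164-108275542), with folds of 5.95, 18.5 and 77.3 and a low H3K4me3 fold of 14.7. Inside Tpm1, which encodes a tropomyosin of the actin filament, a region (chr9:67041653-67044041, H3K4me3 fold 56.6) had ETV5 folds of 7.51, 5.63 and 66.5, and its H3K4me3 summit lay 5726 bp from the nearest gene start of the tables. Arih1, an E3 ubiquitin ligase gene, had a graded set of 4.37, 21.1 and 55.8 (chr9:59484696-59487452). A tall peak with lower neighbours was also seen at Hnrnpa0, an RNA-binding protein gene (12.9, 42.3 and 3.12), and in the region shared by Creb3, a transcription factor gene, and Tln1, the gene of the adhesion protein talin (5.39, 55.5 and 4.15).

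The region with the largest ratio between its ETV5 peaks, 19.8, held the starts of 0610010K14Rik and of the endoribonuclease gene Rnasek (chr11:70237133-70240591, 3459 bp). It had tall peaks at both ends and a low one between them, with folds of 66.1, 3.35 and 66.4 and pileups of 120, 10 and 127 fragments. At the other end, the 3 peaks at Elf3, which encodes an epithelial ETS factor, were all but equal at folds of 5.35, 5.26 and 5.25. Gtf2ird1, a transcription factor gene, was alike at 5.19, 5.24 and 5.34.

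Spen, Pdgfa and Ccnd1 each had 5 ETV5 peaks. At Spen, which encodes an RNA-binding transcriptional repressor, the folds in genomic order were 6.55, 5.0, 12.6, 10.4 and 18, with pileups of 11, 8, 22, 18 and 32 fragments (chr4:141536075-141539526, H3K4me3 fold 49.2). The highest summit lay 298 bp upstream of the start and the other 4 lay 401 to 2049 bp downstream of it, so none fell in the printed window. Pdgfa encodes a growth factor that lung epithelium makes and that acts on mesenchymal cells. Its peaks had folds of 7.85, 4.91, 14.7, 19.3 and 7.48 (chr5:138993140-138996461, H3K4me3 fold 38.6). The summits of 2 of these 5 peaks lay outside the edge of the H3K4me3 peak. Measured from the nearest annotated start of Pdgfa, the highest lay 993 bp upstream, and the peak of 14.7 lay 150 bp upstream, inside the printed window. Ccnd1, the gene of cyclin D1, had folds of 6.5, 9.76, 6.36, 10.3 and 4.93 (chr7:144937648-144940459, H3K4me3 fold 43.4), with no dominant peak. The only region with 6 ETV5 peaks lay inside Bcor, a BCL6 corepressor gene, 80593 bp from the nearest gene start of the tables (chrX:12078365-12081204). Its folds of 5.34, 5.51, 8.19, 9.28, 7.41 and 5.54 came from pileups of 8 to 16 fragments, and its H3K4me3 fold was 24.6. Of its 6 ETV5 summits, 1 lay outside the edge of the H3K4me3 peak.

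The regions' H3K4me3 enrichment had a median fold of 36.1 (95% interval 34.2 to 38.6, range 5.16 to 65.8) and a median pileup of 250 fragments. Comparison peaks of the same widths had a median fold of 42.9, and 30.4 without weighting, so again the direction turned on the weighting, while peaks of 3500 bp or longer with 3 or more ETV5 peaks had 46.3. The background used for the H3K4me3 fold had the same median, 5.38, in the regions and in the comparison peaks. That was also its lowest value in both, so the equal medians carry no information on local input. The background of the ETV5 peaks had a median of 0.924 in the regions (95% interval 0.844 to 0.952). In the comparison peaks it was a width-weighted 1.17, and 1.14 without weighting. The highest H3K4me3 folds were at Mapkapk2 (65.8), a kinase downstream of p38, Kcmf1 (64.0), a ubiquitin ligase, Slc25a51 (62.3), a mitochondrial carrier of NAD, Ddit4 (59.0), an inhibitor of mTORC1, and Camk2n1 (58.8), an inhibitor of the kinase CaMKII. The highest ETV5 fold was 24.9 at Mapkapk2, 39.5 at Kcmf1, 14.6 at Slc25a51, 10.5 at Ddit4 and 21.3 at Camk2n1. The lowest H3K4me3 folds were 5.16 in a region nearest to 1700001O22Rik, 6.5 inside Ccdc177 and 8.01 inside Rgs20. The region inside Ccdc177 was also the shortest, at 752 bp, with ETV5 folds of 6.01, 5.58 and 7.51. Of its 3 ETV5 summits, 2 lay outside the edge of the H3K4me3 peak. Regions under 2000 bp (n = 80) had a median H3K4me3 fold of 26.6 and a median highest ETV5 fold of 10.1, against 39.5 and 15.9 in those of 3000 bp or longer (n = 45).

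A gene start lay inside 216 of the 263 regions, 82.1% (95% interval 77.0 to 86.6%), against a width-weighted 89.2% of the comparison peaks. Without weighting that share was 75.1%, on the other side of the regions' value. For genes without a promoter-table entry either annotated end counted as a start. With promoter-table starts alone the share was 62.4% of the regions, against a width-weighted 74.9% of the comparison peaks. Starts of 2 or more genes lay in 19 regions, 7.22% (95% interval 4.41 to 11.1%), against 14.4% of the comparison peaks, 16.4% of those with exactly 1 ETV5 peak and 10.1% of those with exactly 2, all width-weighted. Without weighting the comparison peaks had 7.91%, inside the regions' interval. Regions with a pair of starts included Kctd10, a cullin-3 adaptor gene, with Ube3b, a ubiquitin ligase gene, where folds were 7.36, 24.9 and 34.2. The CCGGAAGT printed in the Kctd10 window lies in the window of Ube3b as well. Of the 47 regions without a start, 27 had one within 5 kb and 36 had their H3K4me3 summit inside a gene. They had a median H3K4me3 fold of 21.2 and a median highest ETV5 fold of 9.87, against 37.8 and 13.7 in the 216 with a start. Inside Nr3c1, the glucocorticoid receptor gene, a region had its H3K4me3 summit 29071 bp from the nearest annotated end of a gene, with ETV5 folds of 13.4, 20.2 and 23.1 and an H3K4me3 fold of 57.0. The promoter table used here has no entry on chromosome 18, where this gene lies, so its distance from a true start was not measured.

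Around the start, the highest ETV5 maxima of the regions stood farther away than those of the comparison peaks. Of the 12132 comparison peaks, 10222 had 1 ETV5 peak, so this difference is not independent of the rule. The highest ETV5 peak overlapped a promoter-table start in 30.4% of the 263 regions. The width-weighted share was 51.8% among H3K4me3 peaks with exactly 2 ETV5 peaks and 70.5% among those with exactly 1. Without weighting these shares were 45.3% and 57.5%. All of them count peaks without a promoter-table start, which lay in only 62.4% of the regions and a width-weighted 74.9% of the comparison peaks. In the 146 regions that held the promoter-table start of a single gene, the highest ETV5 summit lay within 250 bp of the nearest start of that gene in 57, 39.0% (95% interval 31.1 to 47.5%), against a width-weighted 64.4% of the comparison peaks. It lay more than 250 bp downstream in 37.0% of these regions and more than 250 bp upstream in 24.0%, against 23.8% and 11.8% of the comparison peaks. The median distance from the start was 300.5 bp (95% interval 258 to 370 bp), against 176 bp. Any ETV5 summit lay within 250 bp of the start in 105 of the 146 (71.9%), and 80 (54.8%) had summits on both sides beyond 250 bp. Of the 314 other summits of these regions, 56.4% lay more than 250 bp downstream, 23.6% more than 250 bp upstream and 20.1% within 250 bp. Summits within 250 bp of the start were higher, at a median fold of 10.1 (n = 120, 95% interval 8.19 to 11.3), than those downstream, at 6.57 (n = 231, 95% interval 6.05 to 7.41). Those upstream had 7.79 (n = 109, 95% interval 7.10 to 8.96). At Mapkapk2 all 3 summits lay downstream, at 584, 1790 and 2059 bp. At Hnrnpa0 the highest summit lay 357 bp upstream, with lower maxima 1209 bp upstream and 1134 bp downstream.

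**Figure D4:**
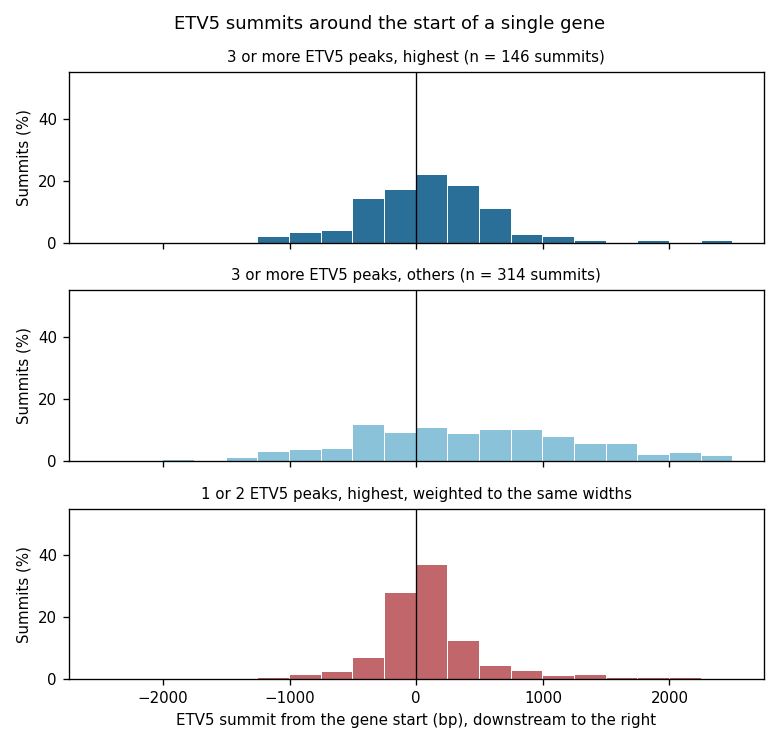
Position of ETV5 summits from the gene start (x axis, bp, downstream to the right) in regions or comparison peaks with the promoter-table start of a single gene, as percent of summits per 250-bp bin (y axis). From top to bottom are the highest summit of the 146 regions, their other 314 summits, and the highest summit of comparison peaks weighted to the same widths. The comparison peaks are concentrated next to the start, while the regions' other summits spread mostly downstream. Most comparison peaks hold a single ETV5 peak, so this contrast is not independent of the rule.

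Promoter sequences in the regions were rich in G and C, and the 2 longer of the 3 searched ETS motifs were in a minority of them. Of 211 RefSeq promoter windows with a start in a region, 5 held CCGGAAGT on either strand, 2.37% (95% interval 0.774 to 5.44%). The width-weighted share was 7.13% in the comparison peaks and 5.48% in H3K4me3 peaks with exactly 2 ETV5 peaks. It was 5.24% of all coding promoters in the table. The windows of Kctd10 and Ube3b overlap and hold the same CCGGAAGT, whereas the interval counts each window as independent. CGGAAG was in 33 windows, 15.6% (95% interval 11.0 to 21.3%), against 31.4% in the comparison peaks and 21.4% of all. The 5-letter core GGAAG, which CGGAAG contains, was in 66.8%, against 73.4% and 72.1%. Median GC content was 69.7% in the regions' windows (95% interval 67.0 to 72.0%), against 65.3% in the comparison peaks and 56.7% in all. With comparison windows weighted to the same GC content instead of width, the shares were 8.14% for CCGGAAGT and 33.4% for CGGAAG. The Spen window shows the composition at its extreme among those printed, with 81.7% GC and 54 CG dinucleotides in 300 bases. An ETV5 summit lay inside 84 of the 211 windows, and 4 of these 84 held CCGGAAGT, against 1 of the other 127. The match shared by Kctd10 and Ube3b counts for both of their windows here, and these counts were not tested. Sequence under ETV5 summits outside these windows was not analysed here.

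**Figure D5:**
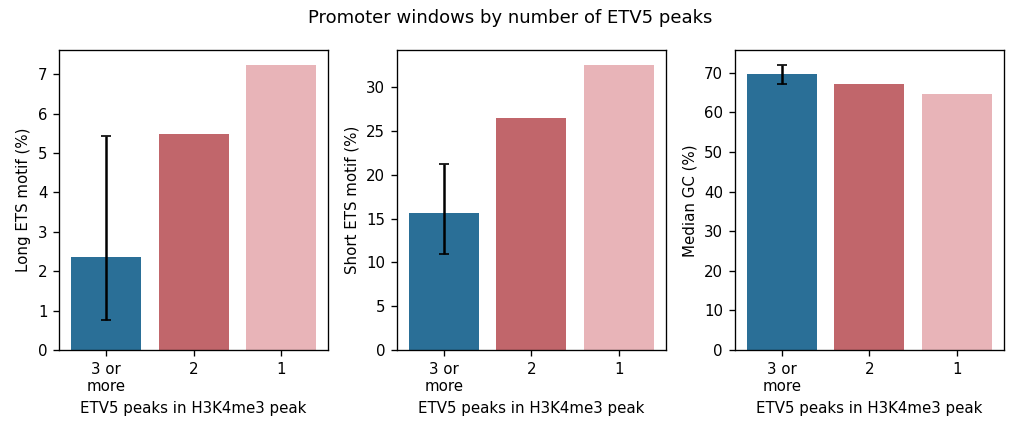
Promoter windows of 300 bases by the number of ETV5 peaks in their H3K4me3 peak. The y axes are the percent with the long ETS motif of 8 letters, the percent with its core of 6 letters, and the median percent GC. Bars for 3 or more are the regions with exact 95% intervals, and bars for 2 and 1 are weighted to the regions' widths. Motif shares are lowest, at 2.37% and 15.6%, and GC is highest, at 69.7%, in the regions.

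Starts of 235 protein-coding genes lay in the regions, 1.09% of the 21627 in the gene table and 2.13% of the 11053 with a start in any H3K4me3 peak. Enzymes that write or erase histone methylation and acetylation had 5 of 47 listed genes among them, all 5 acting on methylation. Beside Kmt2a these were Kdm1a, an eraser of H3 lysine 4 methylation with ETV5 folds of 5.51, 5.95 and 24.1, and Nsd2, a methyltransferase of another H3 lysine, with 6.87, 16.9 and 3.92. The others were Ehmt2, which methylates H3 at a repressive position, with 5.34, 10.1 and 14.3, and Kdm2b, a demethylase that binds unmethylated CpG islands, with 4.90, 9.35 and 5.40. The highest ETV5 fold among these 5 genes ran from 9.35 at Kdm2b to 110 at Kmt2a. DNA replication and cell cycle genes had 2 of 30, Ccnd1 and Rb1, the retinoblastoma gene, whose folds were close to each other at 9.24, 10.4 and 7.16. ERK feedback genes had 1 of 30, Dusp16, a phosphatase of JNK and p38 kinases, with 4 ETV5 peaks of 5.48, 7.88, 16.0 and 8.95. Lung epithelial transcription factors had 1 of 35, Elf3. Splicing factor genes had 1 of 40, Hnrnpa1, in a region shared with the heterochromatin protein gene Cbx5, with folds of 6.52, 7.66 and 5.85. None of the 25 AT2 markers, 29 immediate early and AP-1 genes, 37 surfactant and lipid synthesis genes, 38 translation initiation factor genes or 27 markers of other lung cell types had its start in a region. The lists are not complete. Agpat3, Lpcat4, Sgms1, Lpin3 and Mvd, lipid synthesis genes outside the list of 37, had their starts in regions. The lists are small, their counts were not weighted to H3K4me3 width, and they were not tested.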

How the data were processed

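ChIP-seq of AT2 cells gave 1 library for ETV5 and 1 for H3K4me3, grouped by the antibody that the labels name. Per the file headers and the submitters' processing notes, MACS2 2.1.0.20150420 called the peaks of each library against input at a q-value of 0.05. No source used here names the aligner. Each ETV5 pileup, a signal of whole fragments at the summit per the file headers, was unscaled because the input was the larger library. The fold enrichment ratio, pileup over local input background with 1 added to both, and the −log10 of each p-value and q-value are as the authors deposited them. Per the file headers the ETV5 list used 27495486 input tags and fragments of 203 bp, and that for H3K4me3 used 44758677 input tags and fragments of 288 bp, so the lists differ in depth and background. The input named in the ETV5 header is not the input sample described in the labels.

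The labels name mm9, but the coordinates fit GRCm38, since ETV5 peaks on Y reach 90.8 Mb and 67.8% of H3K4me3 peaks hold a gene start of the GRCm38.p6 RefSeq tables, which gave genes and promoters. A gene start was that of the promoter table (17273 of 21627 coding genes) or, for a gene without an entry, as for all on chromosome 18, either annotated end. Motifs were searched on both strands. Comparison peaks were weighted to the regions' widths in bins of 250 bp. With a single library for each antibody, no test was run. The steps were checked on simulated data with Python 3.11.15 (scipy 1.17.1, pandas 2.3.3, numpy 2.4.6), and figures were drawn with matplotlib 3.10.9. The regions, gene lists and alternatives were chosen with earlier results of these data known. Named are regions with the most ETV5 peaks, the highest ETV5 fold, the highest and lowest H3K4me3 fold, the extreme widths and fold ratios, the most starts, those on X, those far from a start, and genes of the lists. Some of the regions that this rule names are not described. Alternatives changed the width limit, overlap rule, peak thresholds, merging, gene starts, motif, weighting and comparison peaks.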

Additional observations from a re-analysis of the deposited data

How the results depend on the processing

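The number of regions was 152 when ETV5 peaks needed a −log10 q of 5 or more, 40 when they needed 10 or more and 65 with ETV5 peaks under 200 bp apart merged, all of them among the 263. Of the values set beside the comparison peaks, 5 changed direction. Without width weighting the regions minus the comparison peaks gave 7.00 percentage points for holding a gene start, 5.65 for the H3K4me3 fold and 0.750 for the highest ETV5 fold. With a −log10 q of at least 10 the last was 0.138, and with merged ETV5 peaks the difference in fold ratio was -0.172. The median spacing was 609 bp below 3000 bp of width, 619 bp with the ETV5 summit inside, 619 bp with at least 50% of the ETV5 peak inside, and 866.5 bp after merging. The share with a gene start was 76.9% after merging and 86.7% with starts within 1 kb, and, in alternatives added after seeing the data, 62.4% with promoter-table starts alone and 72.6% with either annotated end of every gene. Starts of 2 or more genes were in 3.08% after merging and in 22.1% with all annotated genes. With a −log10 q of at least 10 the H3K4me3 fold was 41.0, the highest ETV5 fold 18.7 and the fold ratio 1.79, and that ratio was 1.94 at 5 and 1.96 after merging. CCGGAAGT was in 0.568% of windows with at least 50% of the ETV5 peak inside, in 0% with a −log10 q of at least 10 and in 0% after merging. As alternative motifs GGAAG was in 66.8% and CGGAAG in 15.6%. Stricter thresholds and merging keep fewer regions, and the cause of the other changes was not tested. The remaining 51 values under these alternatives stayed within the interval of the reported value, or within 1.5 times for the number of regions. Of the other differences from the comparison peaks, 59 stayed within that interval and 16 moved beyond it without changing direction.

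No paired analysis was possible because each antibody has 1 library and no comparison uses replicate numbers. The ETV5 depth of 5715049 tags limits the calling of low maxima, and a pileup of 8 fragments has a 95% Poisson interval of 3.45 to 15.8. Merging ETV5 peaks under 200 bp apart can only lower or keep their number in a region. It therefore cannot tell a signal divided by the caller from separate maxima, which was not tested.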

Other observations

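The regions were spread over all 20 chromosomes examined. Their share of the H3K4me3 peaks of a chromosome ran from 0.979% on chromosome 1 (8 of 817, 95% interval 0.424 to 1.92%) to 2.81% on chromosome 18 (12 of 427, 95% interval 1.46 to 4.86%). On X it was 1.44% (7 of 487, 95% interval 0.580 to 2.94%), against 1.75% on the autosomes (256 of 14635). The 7 regions on X had a median H3K4me3 fold of 25.3. By ETV5 fold the leading regions on X were those of Tsc22d3, a glucocorticoid-induced leucine zipper gene (6.17, 13.6 and 7.10), Cask, a scaffold kinase gene (9.85, 13.1 and 3.92), and Nexmif (5.54, 9.85 and 7.39). At Tsc22d3 all 3 ETV5 summits lay downstream of the start, at 2004, 928 and 455 bp.

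The regions' surroundings lay between those of the comparison peaks and those of longer H3K4me3 peaks. Beyond the ETV5 peaks that overlapped the H3K4me3 peak, a further ETV5 summit lay within 5 kb at 111 of 263 regions, 42.2% (95% interval 36.2 to 48.4%). The share was a width-weighted 28.0% (30.2% without weighting) of H3K4me3 peaks under 3500 bp with 1 or 2 ETV5 peaks. It was 51.2% of peaks of 3500 bp or longer with 3 or more. Another H3K4me3 peak lay within 5 kb of 66 regions, 25.1% (95% interval 19.97 to 30.8%), against a width-weighted 17.2% of the comparison peaks and 38.6% of the longer peaks. Without weighting the comparison peaks had 22.02%, inside the regions' interval.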
